A study of Mus musculus with 9 samples.

Results

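Interleukin-1, tumour necrosis factor (TNF) and the inflammasome form the proximal arm of the cytokine response of macrophages and microglia. Here 10 mouse genes of that arm were followed in the cerebellum, chosen by symbol: the ligand genes Il1a, Il1b, Il18 and Tnf, the antagonist gene Il1rn, the receptor genes Il1r1, Tnfrsf1a and Tnfrsf1b, the sensor gene Nlrp3 and the protease gene Casp1. Each symbol matched 1 row of the deposited tables, so the set is 10 of 53924 rows with a gene name, and 7 of the 10 had enough reads to be among the 16634 genes tested. RNA was sequenced in bulk from 9 libraries of whole cerebellum, 3 per group. The PLX3AP mice received 3-acetylpyridine (3-AP) after PLX3397 had been given to deplete microglia, the 3AP mice received 3-AP without PLX3397, and the control mice received saline. 3-AP is a nicotinamide analogue that destroys inferior olive neurons and causes ataxia, and PLX3397 blocks the receptor for CSF1, a survival signal of microglia and of many macrophages. No group of these libraries received PLX3397 alone, so its effect without 3-AP cannot be read here. The sources used here do not give strain, sex, age, dose or time. Nor do the labels tie libraries to separate mice, so the p-values reflect how far these samples spread, and that spread may be technical.

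Interleukin-1 alpha and beta bind the receptor encoded by Il1r1, and the antagonist encoded by Il1rn occupies that receptor without signalling. Interleukin-1 beta and interleukin-18 are made as inactive precursors, which caspase-1 cuts once a sensor such as NLRP3 has assembled an inflammasome through the adaptor ASC. TNF signals through TNFR1 (Tnfrsf1a), found on most cells, and TNFR2 (Tnfrsf1b), found mainly on immune and endothelial cells. In the brain, microglia are a main source of interleukin-1 beta and TNF, and invading monocytes and neutrophils also make them.

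The libraries held 18355195 to 22234150 estimated reads in named rows, so 1 read was worth 0.0452 to 0.0549 CPM (counts per library scaled by TMM and by total depth). The 8 cerebellar neuron markers summed to 6945 to 7645 CPM in PLX3AP, 6562 to 7138 CPM in 3AP and 7247 to 7912 CPM in control, lower in 3AP than in control without overlap. None of the 8 was called in 3AP against control by edgeR (2 at an unadjusted p under 0.05), DESeq2 or limma-voom, though Calb1, Gabra6 and Neurod1 were lower in 3AP without overlap. The Purkinje cell gene Pcp2 averaged 474 ± 31.8 CPM in PLX3AP, 439 ± 52.6 CPM in 3AP and 432 ± 45.3 CPM in control (SD, n = 3 each). Csf1r, the gene of the receptor that PLX3397 inhibits, averaged 18.5 ± 5.90 CPM in PLX3AP, 54.4 ± 5.57 CPM in 3AP and 33.6 ± 1.38 CPM in control. The library totals of choroid plexus markers ran from 39.4 to 4046 summed CPM and varied within each group. The 10 genes together took 0.00233 to 0.00526% of the reads of a library. Because tissue was sequenced in bulk, fewer cells of a type and less RNA per cell cannot be told apart.

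Levels can be compared between genes only per transcript length, for which the authors' TPM, a length-scaled unit, were used. In 3AP, Tnfrsf1a (16.2 ± 3.58 TPM) and Il18 (15.01 ± 2.14 TPM) stood highest, and their values overlapped between libraries. Casp1 (3.42 ± 0.645 TPM), Tnfrsf1b (3.40 ± 0.317 TPM) and Il1r1 (2.99 ± 0.280 TPM) came next and overlapped in turn. Il1b followed at 1.27 ± 0.411 TPM, apart from its neighbours on either side, and Il1a, Nlrp3, Il1rn and Tnf averaged 0.240 to 0.400 TPM. In PLX3AP and control the order at the top was Il18, at 14.2 ± 0.392 TPM in PLX3AP and 14.1 ± 1.08 TPM in control, then Tnfrsf1a, at 8.25 ± 0.550 TPM in PLX3AP and 7.54 ± 0.365 TPM in control, with no overlap between the genes in either group. Il1b held rank 7 in PLX3AP and rank 9 in control, where its values overlapped those of its neighbours. Il1a, Il1b, Tnf, Il1rn and Nlrp3 had at most 22 reads in any library, and for them raw reads are given.

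Il1b was detected mainly in 3AP. It had 2, 0 and 0 reads in the PLX3AP libraries, 16, 22 and 13 reads in the 3AP libraries, and 0, 3 and 3 reads in the control libraries. All 3 libraries of 3AP lay above all 6 of the others. In 3AP against control, Il1b rose 7.90-fold (log2 fold change 2.98, SE 0.76, 95% interval 1.33 to 4.63), with an edgeR adjusted p of 0.0413. In PLX3AP against 3AP it fell, with a ratio of reads of 0.0394 (2 against 51 reads) and a 95% counting interval of 0.00464 to 0.150, and an edgeR adjusted p of 0.0139. PLX3AP against control did not pass (2 against 6 reads, edgeR adjusted p 0.728). Il1b passed the filter on low counts through the 3AP libraries alone, with at most 3 reads in any other library. A gene tested for that reason had to be higher in 3AP, so its p-values in the comparisons with 3AP are a description. The call in 3AP against control was lost when any 1 of the 6 libraries compared was left out. The adjusted p was then 0.162, 0.112 and 0.092 for control replicates 1, 2 and 3 left out in turn, and 0.119, 0.162 and 0.061 for 3AP replicates 1, 2 and 3. It was also lost on leaving out PLX3AP replicate 2 (0.0506) or PLX3AP replicate 3 (0.0556). The call in PLX3AP against 3AP was lost on leaving out 3AP replicate 1 (0.051), 3AP replicate 2 (0.065), PLX3AP replicate 2 (0.0864) or PLX3AP replicate 3 (0.0802). The log2 fold change of Il1b, 3AP against Control, stayed positive and that of PLX3AP against 3AP stayed negative in each of these fits.

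Il1a, the neighbour of Il1b on chromosome 2, was nearly silent in PLX3AP and present in both other groups. It had 1, 0 and 0 reads in PLX3AP, 11, 7 and 8 reads in 3AP, and 5, 3 and 6 reads in control. The 3 groups did not overlap, with PLX3AP at the low end and 3AP at the high end. Il1a had too few reads for the main test. The ratio of PLX3AP to 3AP reads was 0.0386 (95% counting interval 0.000942 to 0.235), that of PLX3AP to control reads 0.0703 (0.00166 to 0.462), and that of 3AP to control reads 1.82 (0.917 to 3.77). With no filter on low counts, edgeR gave an adjusted p of 0.0156 for PLX3AP against 3AP, 0.342 for PLX3AP against control and 0.721 for 3AP against control.

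Tnf, the gene of the TNF precursor, had 0 reads in each PLX3AP library, 4, 5 and 2 reads in the 3AP libraries, and 0 reads in each control library. Reads were found in 3AP libraries alone. Against a floor of 3 reads over the 3 libraries of a group, the 11 reads of 3AP put Tnf at least 3.65-fold lower in PLX3AP than in 3AP and at least 3.60-fold higher in 3AP than in control, with counting error in the 11 reads not included. With it included, the 95% counting interval of the PLX3AP to 3AP ratio reached up to 0.40, and that of the 3AP to control ratio began at 2.46. Between PLX3AP and control, both at 0, no fold can be given, and a count of 0 allows up to 3 reads over the group. With no filter, edgeR gave adjusted p-values of 0.262 for PLX3AP against 3AP and 0.195 for 3AP against control, which do not pass.

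Il1rn, which encodes the secreted and intracellular forms of the interleukin-1 receptor antagonist, had 0 reads in each PLX3AP library, 5, 6 and 6 reads in the 3AP libraries, and 2, 1 and 2 reads in the control libraries. The 3 groups did not overlap. Against the floor of 3 reads over a group, Il1rn was at least 5.65-fold lower in PLX3AP than in 3AP (0 against 17 reads), with counting error in the 17 reads not included. With that error included, the 95% counting interval of the ratio ran from 0 to 0.243. For PLX3AP against control (0 against 5 reads) the interval ran from 0 to 1.07 and so included no difference. The ratio of 3AP to control reads was 3.33 (95% counting interval 1.18 to 11.6). With no filter, the edgeR adjusted p was 0.046 for PLX3AP against 3AP, 0.673 for PLX3AP against control and 0.636 for 3AP against control.

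**Figure D1:**
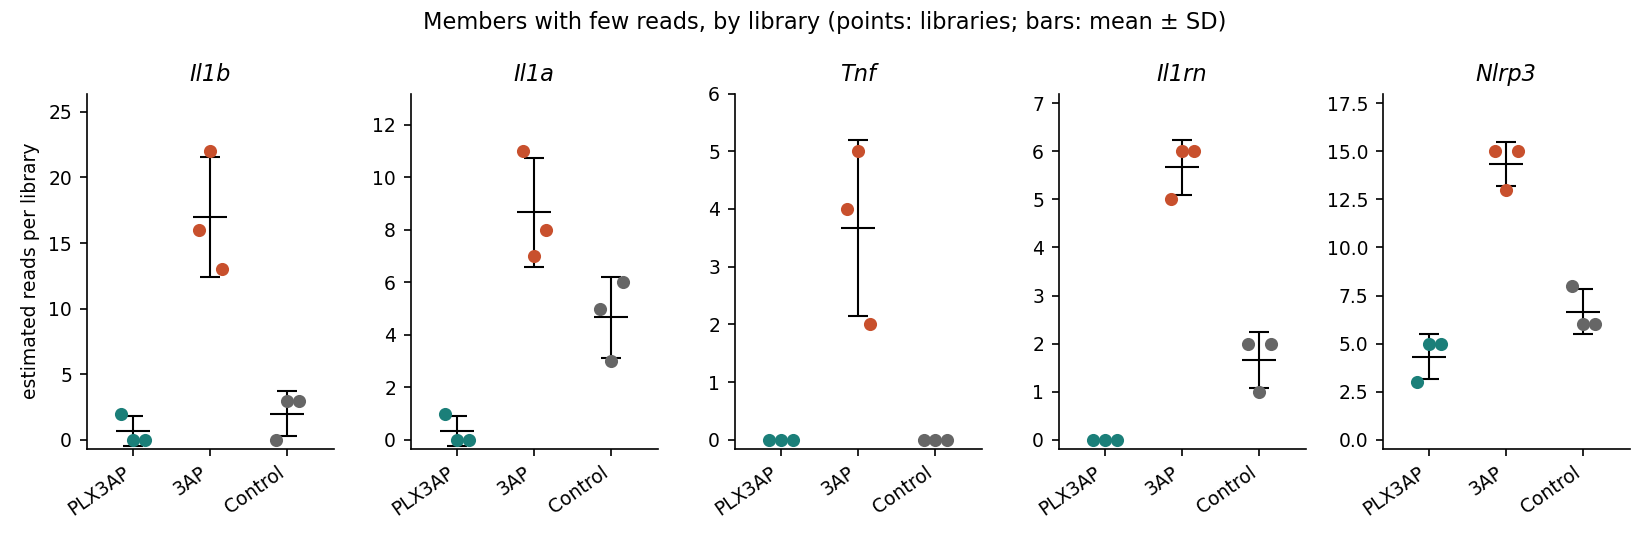
Estimated reads per library of the 5 members with few reads, in PLX3AP, 3AP and control (3 libraries each). Points are libraries and bars are mean ± SD. All 3AP libraries lie above all others for each gene, and Tnf and Il1rn have 0 reads in each PLX3AP library.

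Il18, whose product is also cut by caspase-1, behaved unlike the other ligands. It had 127, 145 and 119 reads in PLX3AP, 167, 126 and 167 reads in 3AP, and 135, 144 and 149 reads in control, and the groups overlapped in every comparison. In CPM it averaged 6.40 ± 0.660 in PLX3AP, 7.48 ± 1.16 in 3AP and 7.10 ± 0.408 in control. No comparison passed: the log2 fold change was -0.22 in PLX3AP against 3AP (95% interval -0.57 to 0.12, edgeR adjusted p 0.671), -0.15 in PLX3AP against control (-0.50 to 0.20, adjusted p 0.793) and 0.08 in 3AP against control (-0.27 to 0.42, adjusted p 0.867).

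To set the ligand genes beside a receptor gene, the 120 bases just upstream of the transcription start of Il1a, Il1b, Tnf and Tnfrsf1b are shown from RefSeq (GRCm38.p6), 5′ to 3′ on the strand of the gene. They were chosen after their values were seen, as the 3 cytokine genes with few reads and the receptor gene with the smallest adjusted p in PLX3AP against 3AP. The stretches are chr2:129309973-129310092, chr2:129371140-129371259, chr17:35202008-35202127 and chr4:145246871-145246990, all on the minus strand. Capitals mark TATAAA, the core of the TATA box, where it begins 20 to 40 bases upstream of the start.
Il1a: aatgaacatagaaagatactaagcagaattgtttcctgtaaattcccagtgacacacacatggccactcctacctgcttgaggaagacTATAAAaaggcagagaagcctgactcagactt
Il1b: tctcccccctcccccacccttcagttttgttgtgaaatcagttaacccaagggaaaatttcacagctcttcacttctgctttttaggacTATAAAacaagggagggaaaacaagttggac
Tnf: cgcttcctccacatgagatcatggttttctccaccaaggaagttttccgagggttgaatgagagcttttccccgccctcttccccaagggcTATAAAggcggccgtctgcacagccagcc
Tnfrsf1b: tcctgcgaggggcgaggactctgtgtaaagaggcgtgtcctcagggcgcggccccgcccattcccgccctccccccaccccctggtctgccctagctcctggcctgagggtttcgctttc

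RefSeq held 14 start windows for the 10 genes, several for some genes. TATAAA began in 3 of the 14, 32 bases upstream of the start in Il1a, 31 in Il1b and 29 in Tnf, and no other window of the 10 genes had it in that place. Of 32851 mouse windows 1.99% had it there. Over the whole 250 bases upstream and both strands, GAGGAAG, a core of sites for the myeloid factor PU.1, occurred in 4 of the 14 windows (1 each of Il1a, Tnf, Tnfrsf1b and Nlrp3), and in 10.6% of all windows. A degenerate NF-kB motif occurred in 3 of the 14 (1 each of Il1rn, Il1r1 and Nlrp3), and in 14.9% of all windows, with no match in those of Il1a, Il1b and Tnf. In Il1a and Tnf, which both have TATAAA and GAGGAAG, the matches do not overlap. A match describes the letters only, and binding was not measured.

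Both TNF receptor genes fell in PLX3AP against 3AP and rose in 3AP against control. Tnfrsf1a, the receptor with a death domain, had 173, 216 and 206 reads in PLX3AP, 481, 382 and 306 reads in 3AP, and 172, 173 and 206 reads in control. It averaged 9.70 ± 0.174 CPM in PLX3AP, 19.0 ± 4.40 CPM in 3AP and 9.12 ± 0.823 CPM in control. PLX3AP and control overlapped, and 3AP lay above both. The log2 fold change was -0.97 (SE 0.16) in PLX3AP against 3AP, with an edgeR adjusted p of 0.00268. It was 1.06 (SE 0.16), or 2.08-fold, in 3AP against control, with an edgeR adjusted p of 0.00147. In PLX3AP against control it was 0.09 (95% interval -0.26 to 0.44), which did not pass (edgeR adjusted p 0.895).

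Tnfrsf1b, the receptor without a death domain, moved further. It had 36, 61 and 34 reads in PLX3AP, 168, 136 and 119 reads in 3AP, and 58, 54 and 46 reads in control. Means were 2.12 ± 0.579 CPM in PLX3AP, 6.88 ± 1.26 CPM in 3AP and 2.62 ± 0.331 CPM in control, with PLX3AP and control overlapping and 3AP above both. Tnfrsf1b fell by 1.69 on the log2 scale (SE 0.24) in PLX3AP against 3AP, that is 3.23-fold, with an edgeR adjusted p of 0.000931. It rose 2.62-fold in 3AP against control (log2 fold change 1.39, SE 0.23, edgeR adjusted p 0.00329). PLX3AP against control gave -0.30 (95% interval -0.83 to 0.23, edgeR adjusted p 0.708). The difference in size between the TNF receptor genes was not tested.

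Il1r1, the signalling receptor for interleukin-1 and a gene mainly of endothelial cells in brain, did not pass in any comparison. It had 114, 179 and 130 reads in PLX3AP, 151, 169 and 183 reads in 3AP, and 84, 120 and 140 reads in control. The 3AP libraries lay above the control libraries, at 8.17 ± 0.733 CPM in 3AP and 5.70 ± 1.41 CPM in control, while PLX3AP, at 6.85 ± 1.07 CPM, overlapped both. Its log2 fold change was 0.52 (95% interval 0.09 to 0.94) in 3AP against control, with an unadjusted p of 0.021 and an edgeR adjusted p of 0.187. In PLX3AP against 3AP it was -0.25 (-0.67 to 0.17, adjusted p 0.702), and in PLX3AP against control 0.27 (-0.16 to 0.69, adjusted p 0.683).

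**Figure D2:**
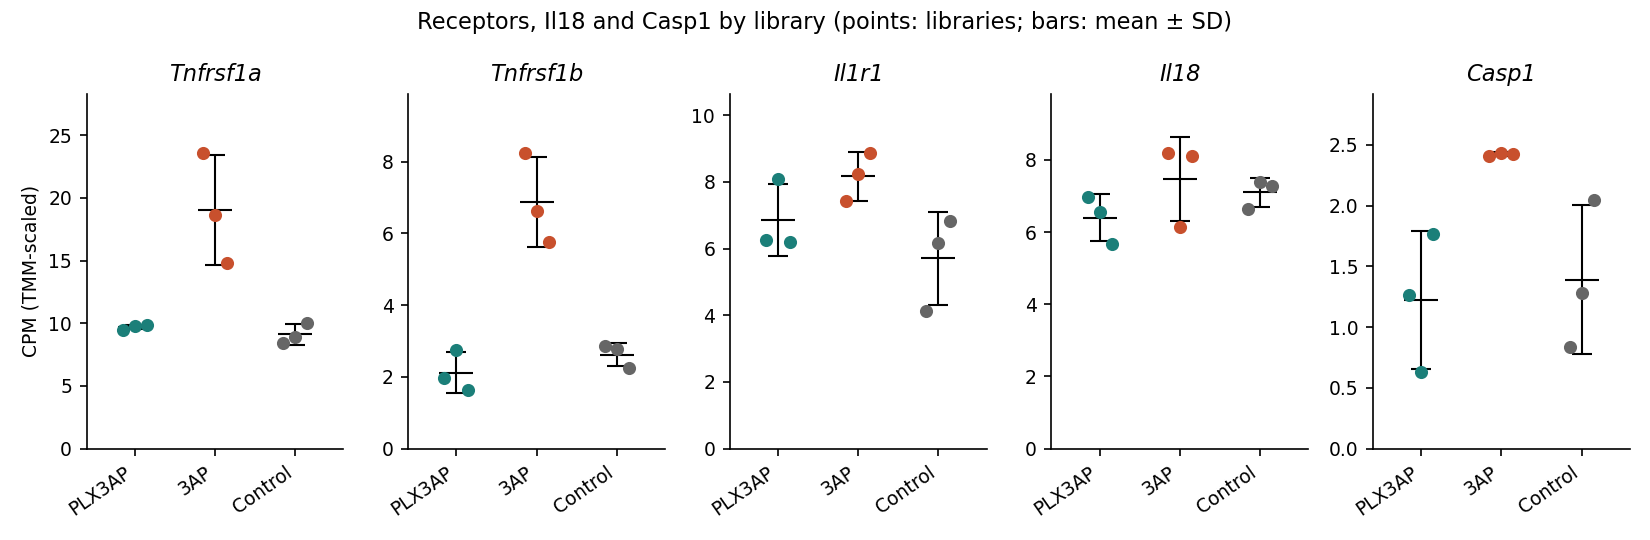
Level of the 3 receptor genes, Il18 and Casp1 in CPM by library, for PLX3AP, 3AP and control (3 libraries each). Points are libraries and bars are mean ± SD. Tnfrsf1a and Tnfrsf1b are higher in 3AP than in all other libraries, and Il18 overlaps between groups.

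The sensor and protease genes of the inflammasome had their highest group mean in 3AP and their lowest in PLX3AP, without passing the test. Nlrp3 had 3, 5 and 5 reads in PLX3AP, 15, 13 and 15 reads in 3AP, and 8, 6 and 6 reads in control, and the 3 groups did not overlap. Its log2 fold change was -1.70 (95% interval -2.67 to -0.73) in PLX3AP against 3AP, with an unadjusted p of 0.00236 and an edgeR adjusted p of 0.0597. In 3AP against control it was 1.06 (0.15 to 1.97, edgeR adjusted p 0.21), and in PLX3AP against control -0.63 (-1.69 to 0.42, adjusted p 0.695). Nlrp3 too passed the filter on low counts through the 3AP libraries alone, so its p-values in the comparisons with 3AP are likewise a description.

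Casp1 had 23, 14 and 37 reads in PLX3AP, 49, 50 and 50 reads in 3AP, and 17, 25 and 42 reads in control. The 3AP libraries lay close together, at 2.42 ± 0.0152 CPM, and above all others, while PLX3AP (1.22 ± 0.568 CPM) and control (1.39 ± 0.613 CPM) each spread widely and overlapped. The log2 fold change was -0.99 (95% interval -1.83 to -0.15, edgeR adjusted p 0.288) in PLX3AP against 3AP, 0.80 (-0.03 to 1.63, adjusted p 0.317) in 3AP against control, and -0.19 (-1.06 to 0.67, adjusted p 0.91) in PLX3AP against control.

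Over the set, edgeR called 3 of the 7 tested genes lower in PLX3AP than in 3AP, which were Il1b, Tnfrsf1a and Tnfrsf1b, against 3.16% of all tested genes called lower, and 0 of 7 higher, against 0.577% called higher. The same 3 were called higher in 3AP than in control, against 3.75% of all tested genes called higher, and 0 of 7 lower, against 1.18% called lower. These comparisons share the 3AP libraries, so they are not independent of each other. Il1b and Nlrp3 passed the filter on low counts through the 3AP libraries alone, with at most 3 reads of Il1b and 8 of Nlrp3 in any other library. Members tested for that reason had to be higher in 3AP, so the counts and medians over the 7 tested genes are a description and support no statement about the set. In PLX3AP against control edgeR called 0 of 7, as did DESeq2 and limma-voom, and 0 had an unadjusted p under 0.05. Of all tested genes edgeR called 0.120% there, 0.0361% higher and 0.0842% lower. The median log2 fold change of the 7 tested genes was -0.99 in PLX3AP against 3AP (-0.01 over all tested genes), 1.06 in 3AP against control (0.00 over all tested genes) and -0.19 in PLX3AP against control (0.00 over all tested genes). Il1a, Tnf and Il1rn, too low to test, stand outside these counts and medians. Of the 7 tested genes, 5 were lower in PLX3AP than in 3AP with no overlap between the groups' values, where 16.9% of all tested genes did not overlap in either direction. Between 3AP and control, 6 of the 7 were higher in 3AP without overlap, with Il18 the exception, where 24.7% of all tested genes did not overlap. In PLX3AP against control 1 of the 7, Nlrp3, was lower without overlap, a share no larger than the 14.3% of all tested genes that did not overlap. The untested Il1a, Tnf and Il1rn had no overlap between PLX3AP and 3AP or between 3AP and control, and Il1a and Il1rn had none between PLX3AP and control.

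**Figure D3:**
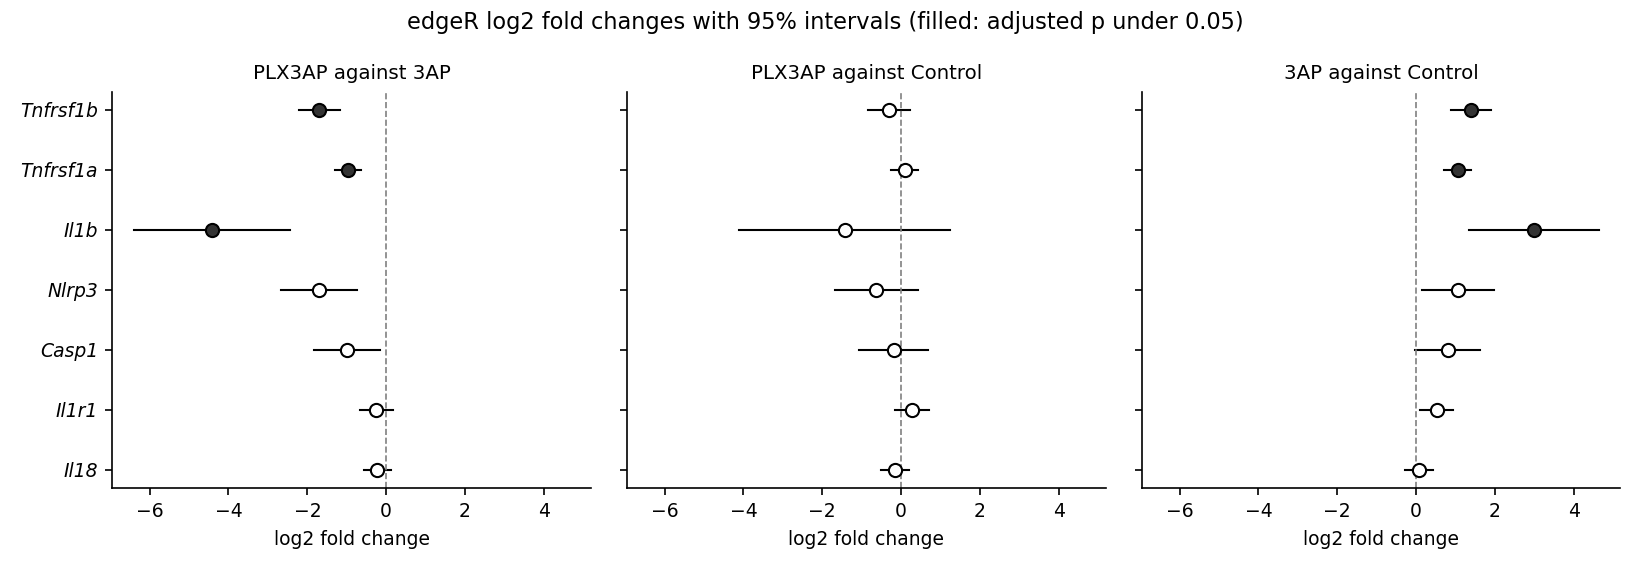
Log2 fold changes (x axis) of the 7 tested members in PLX3AP against 3AP, PLX3AP against control and 3AP against control, from edgeR on 9 libraries. Bars are 95% intervals and filled points have an adjusted p under 0.05. Il1b, Tnfrsf1a and Tnfrsf1b are filled in 2 panels, and every interval of PLX3AP against control includes 0.

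The other genes of these pathways were taken from 4 lists of 82 genes, of which 77 matched by symbol and 63 were tested. Of 20 tested inflammasome and pyroptosis genes, 7 fell in PLX3AP against 3AP (median log2 fold change -0.39) and 6 rose in 3AP against control (median 0.51). The shares of all tested genes were 3.16% called lower and 3.75% called higher in these comparisons. Pycard, which encodes the adaptor ASC between sensor and caspase-1, had the largest rise among the pathway genes called: 1.40 ± 0.385 CPM in PLX3AP, 6.03 ± 1.28 CPM in 3AP and 1.12 ± 0.439 CPM in control. It rose 5.35-fold in 3AP against control (log2 fold change 2.42, SE 0.33, edgeR adjusted p 0.000709) and fell by 2.11 on the log2 scale in PLX3AP against 3AP (SE 0.32, edgeR adjusted p 0.00166). Gbp2, an interferon-induced GTPase that acts on pathogen membranes upstream of inflammasomes, averaged 4.77 ± 0.189 CPM in PLX3AP, 14.9 ± 4.38 CPM in 3AP and 3.66 ± 0.151 CPM in control. It rose 4.08-fold in 3AP against control (edgeR adjusted p 9.96e-05) and fell by 1.65 on the log2 scale in PLX3AP against 3AP (edgeR adjusted p 0.000374). Of its relatives, Gbp3 rose 2.50-fold and Gbp5 2.56-fold in 3AP against control. Gbp3 fell in PLX3AP against 3AP, and Gbp5, at 4.30 ± 0.653 CPM in PLX3AP and 5.77 ± 0.300 CPM in 3AP, did not pass (log2 fold change -0.43, edgeR adjusted p 0.33). Reads of the Gbp and Naip families can be divided between close paralogs, so their single members are less certain.

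The remaining inflammasome calls, named after their values were seen, were Gsdmd, Naip2, Naip5 and Naip6. Gsdmd, which encodes the pore-forming protein cut by caspase-1, averaged 1.20 ± 0.533 CPM in PLX3AP, 3.53 ± 0.372 CPM in 3AP and 1.44 ± 0.147 CPM in control. It fell by 1.56 on the log2 scale in PLX3AP against 3AP (edgeR adjusted p 0.0139) and rose 2.44-fold in 3AP against control (edgeR adjusted p 0.0336). Naip2, a sensor gene of the NLRC4 inflammasome, was at 0.516 ± 0.143 CPM in PLX3AP, 2.46 ± 0.634 CPM in 3AP and 0.714 ± 0.0712 CPM in control, and passed in both of these comparisons. Naip5 and Naip6 passed in PLX3AP against 3AP, where both fell. Nlrc4 itself, also named after its values were seen, had too few reads to be tested. It had 14 reads over the PLX3AP libraries, 17 over the 3AP libraries and 15 over the control libraries, and the groups overlapped. Naip6 had 2 to 4 reads in the PLX3AP libraries, 10 to 17 in 3AP and 5 to 12 in control. It thus passed the filter on low counts mainly through 3AP.

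Of 21 tested genes of TNF signalling, 4 fell in PLX3AP against 3AP (Casp8, Birc3, Ripk1 and Cflar) and 4 rose in 3AP against control (Casp8, Birc3, Ripk1 and Map3k14), with medians of -0.14 and 0.10 in these comparisons. Of all tested genes, 3.16% were called lower in the first and 3.75% higher in the second. Casp8, the initiator caspase below death receptors, averaged 1.79 ± 0.253 CPM in PLX3AP, 4.18 ± 0.500 CPM in 3AP and 2.29 ± 0.412 CPM in control. Birc3, a ubiquitin ligase of the TNF receptor complex, averaged 2.57 ± 0.230 CPM in PLX3AP, 5.22 ± 1.22 CPM in 3AP and 2.52 ± 0.308 CPM in control. Ripk1, the kinase recruited to TNFR1, rose 1.47-fold in 3AP against control, and Map3k14, the kinase of the alternative NF-kB pathway, rose 1.60-fold. Map3k14 was at 13.01 ± 0.575 CPM in PLX3AP and 14.1 ± 1.04 CPM in 3AP and did not pass between them (edgeR adjusted p 0.843).

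The count of TNF signalling genes was fragile. In 3AP against control it became 0, 2 and 1 on leaving out control replicates 1, 2 and 3 in turn, and 0, 1 and 2 on leaving out 3AP replicates 1, 2 and 3. With limma-trend on the authors' TPM it was 1 or 0. In PLX3AP against 3AP it became 1 without 3AP replicate 1 or PLX3AP replicate 2, and 2 without control replicate 1, control replicate 2, 3AP replicate 2, 3AP replicate 3, PLX3AP replicate 1 or PLX3AP replicate 3.

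Among 6 tested genes of the interleukin-1 family beyond the members, Il18bp changed in both comparisons. It encodes the soluble protein that neutralises interleukin-18, and averaged 3.41 ± 0.638 CPM in PLX3AP, 6.42 ± 1.18 CPM in 3AP and 2.97 ± 0.691 CPM in control. It rose 2.16-fold in 3AP against control (edgeR adjusted p 0.0142), a call lost without control replicate 1, 3AP replicate 1 or 3AP replicate 2 (0 genes of the list higher in each case). It fell by 0.91 on the log2 scale in PLX3AP against 3AP (edgeR adjusted p 0.0471), a call lost without control replicate 2 or 3, 3AP replicate 1 or 2, or PLX3AP replicate 2 or 3 (0 genes of the list lower in each case). Il33, the gene of a nuclear cytokine that in brain is made by oligodendrocytes and astrocytes, was named after its values were seen, because it went the other way. It rose in PLX3AP against 3AP, at 57.1 ± 1.21 CPM in PLX3AP and 31.8 ± 7.63 CPM in 3AP (log2 fold change 0.85, SE 0.13, edgeR adjusted p 0.0028). Control stood at 42.1 ± 2.34 CPM and did not differ from 3AP past the threshold (log2 fold change -0.41, edgeR adjusted p 0.127). The decoy receptor gene Il1r2, likewise named after its values were seen, had 23 reads over the PLX3AP libraries, 44 over the 3AP libraries and 8 over the control libraries, and did not pass in 3AP against control (log2 fold change 2.38, SE 0.67, edgeR adjusted p 0.0649).

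None of 16 tested adaptors and kinases below the interleukin-1 and Toll receptors was called. In PLX3AP against 3AP edgeR called 0, with 2 at an unadjusted p under 0.05, DESeq2 called 1 and limma-voom 0. In 3AP against control edgeR called 0, as did DESeq2 and limma-voom, with 3 at an unadjusted p under 0.05. Over the 4 lists together, 12 of 63 genes fell and 1 rose in PLX3AP against 3AP, against 3.73% of all tested genes called in either direction, and 11 rose in 3AP against control, against 4.93% called in either direction. The count of 12 became 7 on leaving out 3AP replicate 1 or PLX3AP replicate 2, and the count of 11 became 5 and 7 on leaving out control replicates 1 and 3, and 4 and 6 on leaving out 3AP replicates 1 and 2. On the authors' TPM, limma-trend called 7 higher in 3AP against control. In PLX3AP against control edgeR called 0 of 63, with 7 at an unadjusted p under 0.05, while DESeq2 called 1 and limma-voom 0.

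**Figure D4:**
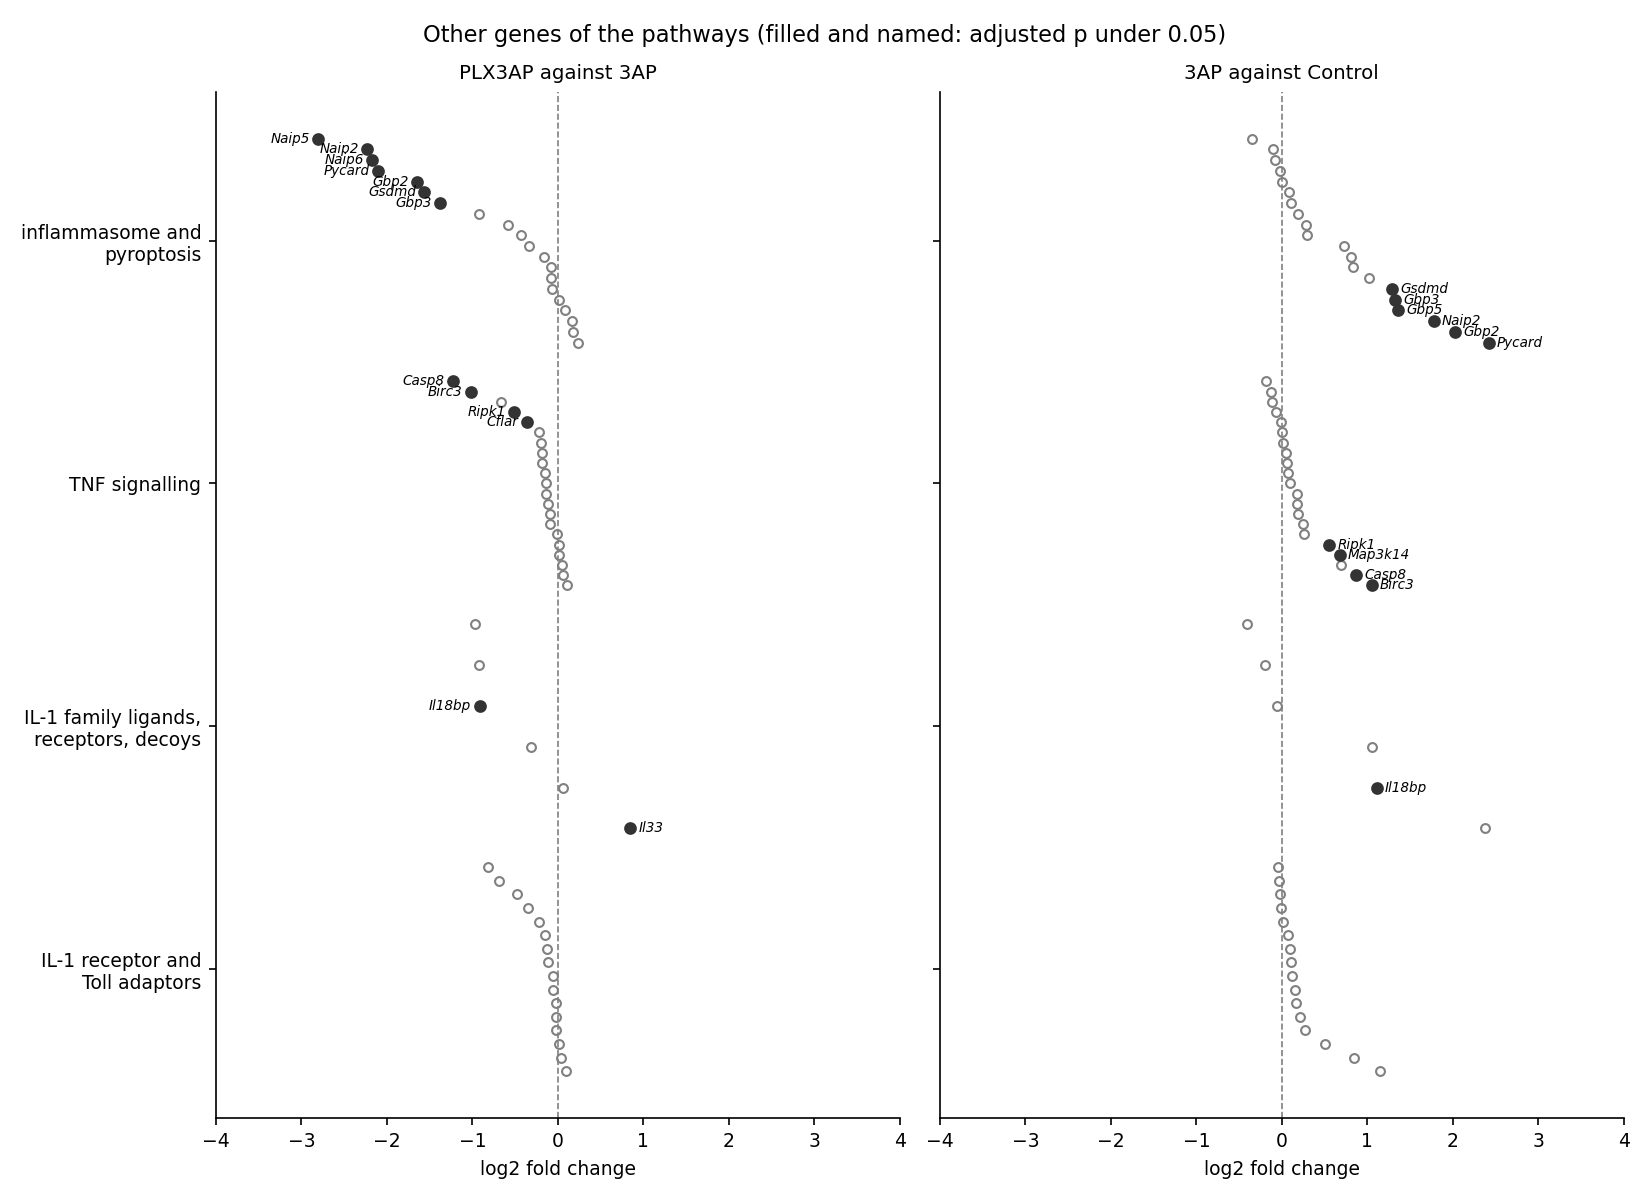
Log2 fold changes (x axis) of the 63 tested genes in 4 lists of related genes, in PLX3AP against 3AP and in 3AP against control. Each point is 1 gene, ordered by its value within a list, and filled, named points have an adjusted p under 0.05. In PLX3AP against 3AP 12 of the filled points lie below 0 and Il33 lies above it, and in 3AP against control all 11 lie above 0.

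Markers of several cell types moved with the same groups. The 12 markers of homeostatic microglia summed to 93.6 to 142 CPM in PLX3AP, 246 to 291 CPM in 3AP and 154 to 170 CPM in control, with none at 0 in any library. Of these, 7 fell in PLX3AP against 3AP and 4 rose in 3AP against control. P2ry12, Siglech and Gpr34 had lower means in 3AP than in control and did not pass there. For this and the other marker lists, the shares of all tested genes were 3.16% called lower in PLX3AP against 3AP and 3.75% called higher in 3AP against control. The share called lower in PLX3AP against control was 0.0842%. In PLX3AP against control edgeR called 0 of the 12, with 8 at an unadjusted p under 0.05, while DESeq2 called 4 lower and limma-voom 0. The 8 markers of border macrophages summed to 3.73 to 6.92 CPM in PLX3AP, 36.2 to 39.1 CPM in 3AP and 24.0 to 26.3 CPM in control. Of 7 tested, all 7 fell in PLX3AP against 3AP, 5 fell in PLX3AP against control and 2 rose in 3AP against control. The 2 that rose were Stab1 (mean 17.28 CPM in 3AP, 10.99 CPM in control) and F13a1 (7.364 CPM in 3AP, 2.569 CPM in control). Cbr2 was higher in 3AP than in control without overlap and did not pass. Mrc1, Cd163, Lyve1 and Pf4 overlapped between 3AP and control, and Lyve1 and Pf4 had lower means in 3AP. The higher sum in 3AP thus does not describe every marker of this list. The 12 markers of blood neutrophils and monocytes, cells that also make interleukin-1 beta, summed to 3.57 to 4.41 CPM in PLX3AP, 13.7 to 29.3 CPM in 3AP and 3.93 to 6.69 CPM in control. Between 1 and 4 of them were at 0 in a PLX3AP library, 0 or 1 in a 3AP library and 1 to 5 in a control library. Of 8 tested, 5 fell in PLX3AP against 3AP and 4 rose in 3AP against control. Plac8, Retnlg and Ccr2 passed the filter on low counts through the 3AP libraries alone, with at most 5 reads in any other library. Markers tested for that reason had to be higher in 3AP, so the counts of this list are a description. S100a9, an abundant neutrophil protein, had 22 reads over the PLX3AP libraries, 412 over the 3AP libraries and 42 over the control libraries, and the neutrophil marker Ly6g had 0 reads in PLX3AP, 4 in 3AP and 1 in control. The neutrophil granule genes of the list were divided. Ngp and Camp did not show this order: Ngp had 22 reads in PLX3AP, 20 in 3AP and 21 in control, and Camp had 7 in each group. Mmp8 did, with 3 reads in PLX3AP, 29 in 3AP and 5 in control. So did Mmp9, with 106 reads in PLX3AP, 199 in 3AP and 142 in control. The 10 endothelial markers summed to 263 to 272 CPM in PLX3AP, 341 to 364 CPM in 3AP and 254 to 264 CPM in control, and 4 fell in PLX3AP against 3AP while 5 rose in 3AP against control. Means of Cldn5 were 63.8 CPM in 3AP and 24.9 CPM in control, and those of Pecam1 55.3 and 23.0 CPM. Flt1 went the other way without overlap, with means of 65.9 CPM in PLX3AP, 60.3 CPM in 3AP and 66.7 CPM in control, and did not pass. Ocln and Slco1a4 overlapped in both comparisons, so the higher sum in 3AP does not describe every marker of this list. The 8 astrocyte markers summed to 5456 to 6054 CPM in PLX3AP, 5395 to 6991 CPM in 3AP and 5586 to 5829 CPM in control and overlapped, a sum made up mostly of Aldoc and Slc1a3. Single astrocyte genes moved in opposite directions. Gfap fell 2.77-fold and Hopx rose (log2 fold change 0.59) in PLX3AP against 3AP. Gfap rose 3.53-fold, while Aqp4 fell 1.41-fold and Hopx fell 1.69-fold, in 3AP against control. The part of each of these cell types in the levels of the 10 genes was not tested.

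As a description, the level of each gene was also set against the summed microglia markers of its own library. That sum was 93.6 to 142 CPM in PLX3AP, 246 to 291 CPM in 3AP and 154 to 170 CPM in control. A gene with equal CPM in all groups therefore comes out highest in PLX3AP and lowest in 3AP on this scale. Il1b came to 0 to 0.117% of that sum in PLX3AP, 0.238 to 0.435% in 3AP and 0 to 0.10% in control, so 3AP stayed apart from both. Tnfrsf1b came to 1.15 to 2.58% in PLX3AP, 2.18 to 2.83% in 3AP and 1.32 to 1.80% in control, where 3AP stayed apart from control and overlapped PLX3AP. Tnfrsf1a came to 6.93 to 10.2% in PLX3AP, 5.61 to 8.11% in 3AP and 5.09 to 5.89% in control, so 3AP overlapped both and the mean was 8.74% in PLX3AP and 7.09% in 3AP. On this scale the Tnfrsf1a levels of 3AP no longer lay above those of the other groups. Casp1 came to 0.592 to 1.35% in PLX3AP, 0.826 to 0.988% in 3AP and 0.503 to 1.20% in control, with all groups overlapping. Nlrp3 came to 0.168 to 0.211% in PLX3AP, 0.253 to 0.275% in 3AP and 0.172 to 0.237% in control, with 3AP above the rest. Il1a came to 0 to 0.0587% in PLX3AP, 0.138 to 0.186% in 3AP and 0.10 to 0.172% in control, so that on this scale 3AP and control overlapped while PLX3AP stayed below both. Il18 came to 4.0 to 7.45% in PLX3AP, 2.49 to 3.06% in 3AP and 4.0 to 4.81% in control, lowest in 3AP. Il1r1 came to 4.38 to 7.57% in PLX3AP, 2.55 to 3.36% in 3AP and 2.49 to 4.01% in control, with PLX3AP above the rest. Il1rn stayed at 0 in PLX3AP, with 0.0843 to 0.119% in 3AP and 0.0334 to 0.0592% in control. Tnf came to 0.0367 to 0.0988% in 3AP and was at 0 in the other groups.

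**Figure D5:**
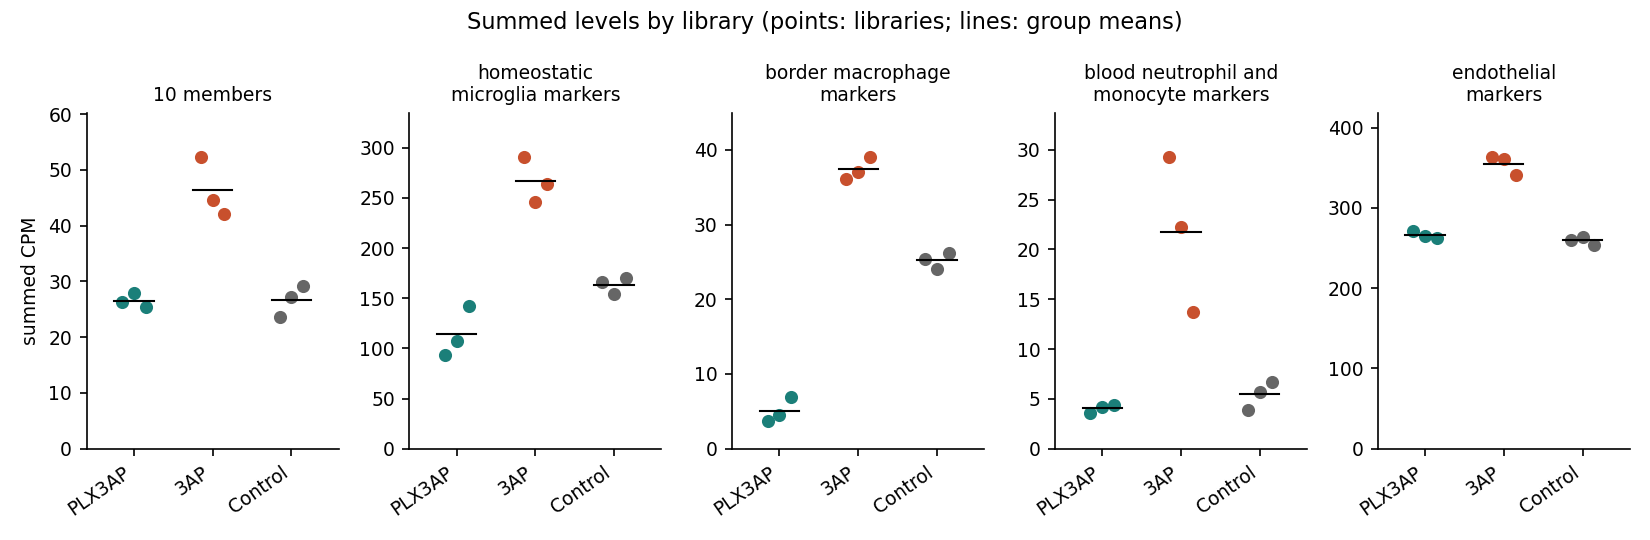
Summed CPM by library of the 10 members and of 4 marker lists, in PLX3AP, 3AP and control. Points are libraries and lines are group means. In each panel the 3AP libraries lie above all others, and the homeostatic microglia and border macrophage markers are lowest in PLX3AP. Not shown are the astrocyte and choroid plexus sums, which overlapped between groups, and the cerebellar neuron sums, which were lower in 3AP than in control.

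For the 5 tested members with a mean of at least 1 CPM, the genes with the most similar pattern over the 9 libraries were looked up among 16627 others, by the Pearson correlation of log2 CPM. Tnfrsf1a was most like Gfap (r = 0.989), the astrocyte filament gene, which averaged 281 ± 29.8 CPM in PLX3AP, 778 ± 334 CPM in 3AP and 220 ± 20.6 CPM in control, and Serpina3n (r = 0.984), a protease inhibitor gene raised in reactive astrocytes. Tnfrsf1b was most like Fam111a (r = 0.975) and Dock2 (r = 0.974), of which Dock2 is a regulator of leukocyte migration. Casp1 was most like P2ry6 (r = 0.964), a nucleotide receptor gene of microglia, and S100a8 (r = 0.941), a neutrophil gene. Il18 was most like Crot (r = 0.953) and Gm38356 (r = 0.934), and Il1r1 was most like Slc25a47 (r = 0.961) and Gm44053 (r = 0.947). These values describe 9 libraries in 3 groups, which share library scaling and the group means, and were picked as the highest of many.

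The authors' TPM did not follow their counts equally in all libraries for 3 of the genes. The ratio of counts to TPM, scaled for each library, measures the transcript length used for a gene. Over 12374 well-measured genes the highest ratio over the lowest had a median of 1.10 and a 95th percentile of 1.65. It was 4.65 for Il1rn over the 6 libraries with reads, 2.32 for Nlrp3 and 2.10 for Tnfrsf1b, while Casp1 (1.61) and the other members stayed under that percentile. In control replicate 3, Tnfrsf1b had 46 reads and 1.95 TPM, against 58 reads and 1.28 TPM in control replicate 1. In control replicate 1, Nlrp3 had 8 reads and 0.39 TPM, against 15 reads and 0.33 TPM in 3AP replicate 1. For Nlrp3 and Il1rn, TPM thus overlapped between 3AP and control where counts did not.

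In GRCm38 coordinates (mm10, GENCODE M21), Il1a lies on chromosome 2 from 129299610 to 129309972 and Il1b from 129364570 to 129371139, with 54597 bases between them and both on the minus strand. Il1rn lies on the same chromosome from 24336853 to 24351494. Casp1 and Il18 lie on chromosome 9, from 5298517 to 5307265 and from 50554827 to 50581840. Il1r1 lies on chromosome 1 from 40225080 to 40317257, Tnfrsf1b on chromosome 4 from 145213463 to 145246870 and Tnfrsf1a on chromosome 6 from 125349362 to 125362484. Nlrp3 lies on chromosome 11 from 59541568 to 59566956, and Tnf on chromosome 17 from 35199381 to 35202007.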

How the data were processed

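RNA was measured by bulk sequencing of 9 cerebellum libraries, grouped by their titles. The submitters' processing notes name mm10 and the tools RSEM, StringTie, HISAT2 and fastp. Their versions, the annotation and the strandedness were not given in those notes or the labels. The deposited files hold expected counts (28.3 to 30.5% of values above 0 are not whole, but 89 of 90 member values are) and TPM, scaled to transcript length and library by the authors. Rows with no name (1884, 0.526 to 0.660% of counts) were left out.

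Rounded expected counts were fitted in R 4.3.3 with edgeR 4.0.16: filterByExpr, TMM (factors 0.986 to 1.02), robust quasi-likelihood, 1 term per group, all 9 libraries, with two-sided p-values adjusted by Benjamini-Hochberg over 16634 genes and calls under 0.05. CPM and log2 fold changes were computed here. The standard error is the log2 fold change over the square root of F, and intervals are 95%. Counting intervals are exact binomial, and they and the floor of 3 counts cover counting error only. Alternatives were DESeq2 1.42.0, limma 3.58.1 (voom, and trend on log2(TPM + 1) or log2(TPM + 0.1)), RLE scaling, no filter, only the groups compared, a replicate block, and each library left out. The fit was also run on data simulated with means and spread estimated from these libraries. Its outcome is not given here and is not used as support for members with few reads. No 2 libraries of a group agreed within sampling noise (chi-square over its degrees of freedom 4.93 to 29.4).

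The members and lists were chosen with earlier results of these data known. Named genes were all members, of other pathway lists up to 4 called in 3AP against control with the smallest adjusted p, and the genes most alike in pattern. Cflar, Csf1r and all other genes of the marker lists were named outside that rule, after their values were seen.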

Additional observations from a re-analysis of the deposited data

How the results depend on the processing

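Over 21 log2 fold changes (7 tested genes in 3 comparisons) and their alternatives, 342 of 355 values kept their side of the threshold and 13 lost it, all of Il1b, whose reads limit what this depth can show. For Tnfrsf1a and Tnfrsf1b every alternative kept the call in both comparisons. With no filter on low counts, 5 members were called in PLX3AP against 3AP, in place of 3. Leaving out a library gave 2 to 3 members called there and in 3AP against control, and 0 in PLX3AP against control.

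Of all genes, edgeR called 621 in PLX3AP against 3AP (401 to 715 with a library left out), 820 in 3AP against control (466 to 991) and 20 in PLX3AP against control (7 to 153). The last count was 110 with DESeq2, 9 with limma-trend on log2(TPM + 1), 71 with no filter and 10 with the replicate block. In 3AP against control 623 (76.0%) were higher and 197 lower, but 513 (87.7%) and 72 with log2(TPM + 1), 480 (87.1%) and 71 with log2(TPM + 0.1), and 301 were lower with DESeq2. In PLX3AP against 3AP 96 were higher, but 155 with DESeq2, 60 with log2(TPM + 1) and 55 with log2(TPM + 0.1). The causes were not tested.

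Replicate numbers did not pair the samples: same-numbered libraries correlated at -0.189 to 0.0828 in their deviations from group means, and 0 of 9 libraries correlated best with their own number in both other groups. With the replicate block, Il1b in 3AP against control had an edgeR adjusted p of 0.103 (log2 fold change 2.97), TNF signalling genes called numbered 2 in place of 4 in 3AP against control and 1 in place of 4 in PLX3AP against 3AP, and 121 genes in place of 197 were lower in 3AP against control.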
